A study of Bos taurus with 12 samples.

Results

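The genes described here encode subunits of respiratory complexes II, III, IV and V, the part of the mitochondrial oxidative phosphorylation chain beyond complex I. They were taken by symbol: SDHA to SDHD for complex II, symbols starting with UQCR and CYC1 for complex III, symbols starting with COX4 to COX8 for complex IV, and symbols starting with ATP5 for complex V. Only probe sets naming 1 gene were used, and a gene with several was represented by the probe set of highest mean level over the 12 arrays. This gave 43 genes of the 9155 that the array names, with 4 in complex II, 9 in complex III, 13 in complex IV and 17 in complex V. Cytochrome c (CYCS), the small carrier between complexes III and IV, matched the rule but was not named by a probe set used here. The genes lie in the nucleus; the subunits encoded by mitochondrial DNA were not part of the set.

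RNA came from pools of Japanese black cattle embryos made in vitro. The oocytes were those of adult cows, whose ovaries came from an abattoir, or of prepubertal heifers aged 9 to 12 months, whose ovaries were removed on farms with a spay device. There were 4 groups of 3 pools: adult 8-16-cell embryos, prepubertal 8-16-cell embryos, adult blastocysts and prepubertal blastocysts. In all groups the oocytes were matured and fertilized in vitro with frozen-thawed semen and the embryos grew in CR1aa medium under reduced oxygen. Each 8-16-cell pool held 50 embryos of day 3 (70 to 72 h from insemination), and each blastocyst pool 10 expanded, unhatched embryos of day 7. The embryos were selected for normal morphology. Shared animals, bulls or culture days between pools are neither stated nor excluded in the sources used here. The p-values rest only on spread between these pools, and mostly on that of all probe sets of like level, not of the gene itself. Donor age also goes with where and how the ovaries were collected, and these cannot be told apart.

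Complex II passes electrons from succinate to ubiquinone and is at the same time an enzyme of the tricarboxylic acid cycle. Complex III hands them on to cytochrome c, complex IV (cytochrome c oxidase) reduces oxygen with them, and complex V (ATP synthase) uses the proton gradient built on the way to make ATP. The bovine embryo switches on most of its own genome around the 8-16-cell stage, its mitochondria are inherited from the oocyte in an immature form, and oxygen use is known to rise as the blastocyst forms and pumps ions to fill its cavity.

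Levels are given as log2(signal + 16), called log2 signal, and a difference is between mean log2 signals with its standard error (SE). Each array is scaled to a common mean, so a level is relative to the other RNA on that array, and fewer cells of a type and less RNA per cell cannot be told apart in pooled embryos. A probe set counted as above background where it exceeded all 27 Bacillus subtilis control probe sets of its array, genes with no counterpart in the embryo. Such transcripts can also be added to a sample as labelling controls. The sources used here do not say whether they were, and if so this background is too high, with every statement that rests on it. This background lay between 7.11 and 8.78 on 11 arrays and at 10.71 on prepubertal 8-16-cell replicate 3. Stage markers went with the labels: 5 of 7 oocyte markers fell and 7 of 8 trophectoderm markers rose in blastocysts. Of 14 cumulus and granulosa markers 1 rose (PTGS2, also on the trophectoderm list) and 1 fell (STAR), and 0 of 4 blood and 0 of 6 sperm markers passed (limma, with 2 blood and 0 sperm markers at an unadjusted p under 0.05).

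Subunit genes were higher in blastocysts across all 4 complexes. With both donor groups weighted equally, 26 of the 43 genes rose from the 8-16-cell stage to the blastocyst, 0 fell and 17 did not pass (limma, Benjamini-Hochberg adjusted p of 0.05 or less over 24016 probe sets). Over all probe sets, 3.9% rose and 2.51% fell. Since 40 of the 43 genes lay at or above the median level of all probe sets, the closer background is the 7.74% of probe sets at or above that level that rose. The median difference of the 43 genes was 3.54, against -0.17 over all probe sets, and 40 of the 43 differences were above 0. For 15 genes the 6 blastocyst arrays all lay above the 6 8-16-cell arrays, which held for 2.17% of all probe sets. The opposite arrangement, seen for 1.27% of all probe sets, was found for 0 of them. With every signal raised to the highest background of the 12 arrays 16 genes rose, and the calls of SDHA, SDHB, UQCR10, UQCR11, UQCRC2, COX8A, ATP5F1E, ATP5IF1, ATP5ME, ATP5MF and ATP5PD were lost (adjusted p from 0.0563 to 0.669).

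**Figure D1:**
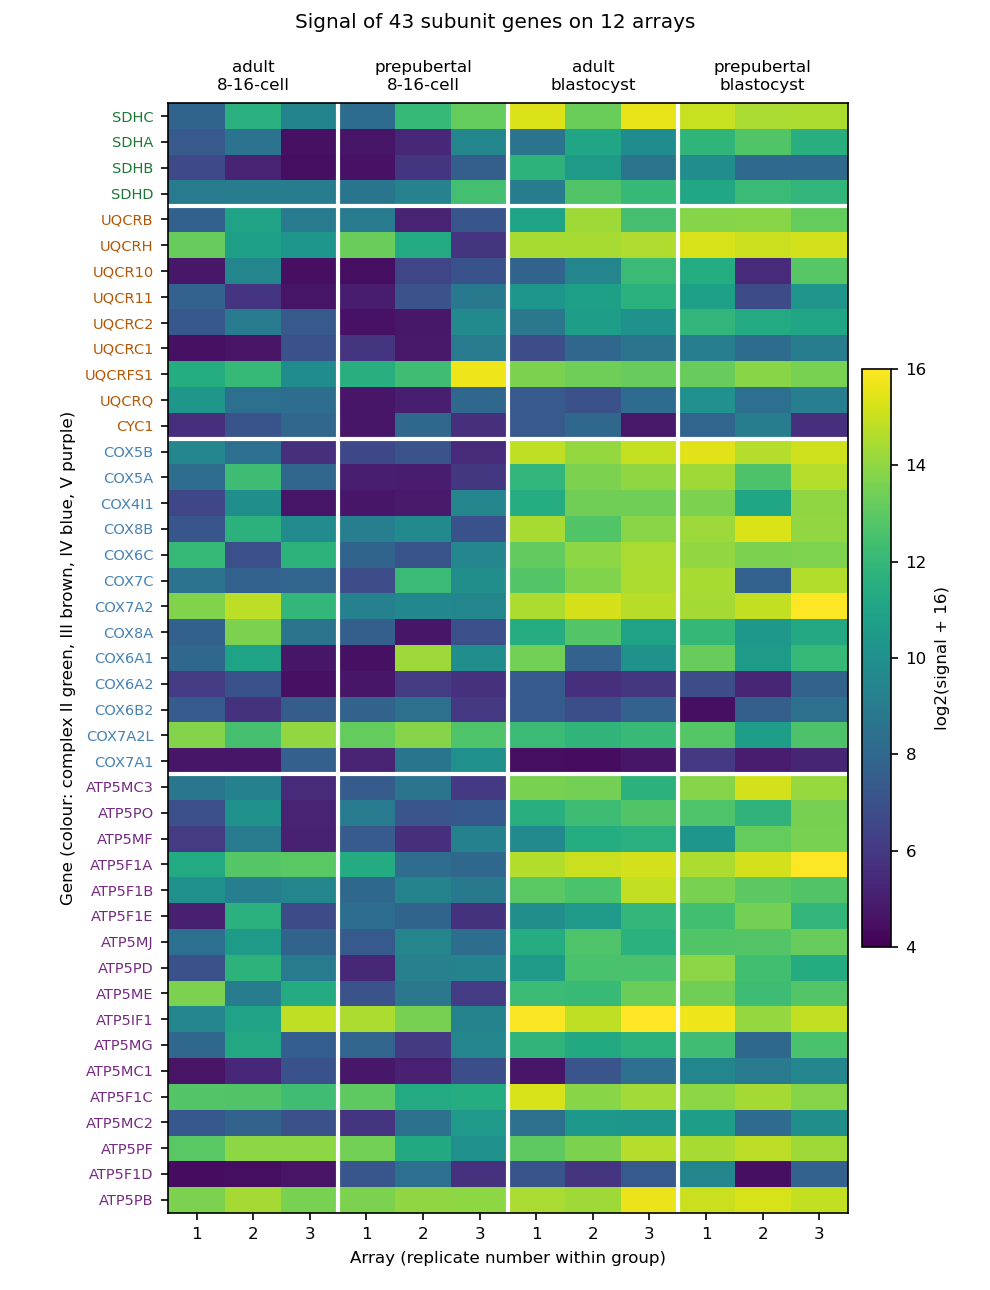
Log2 signal (colour) of the 43 subunit genes (rows, grouped by complex and ordered within it by stage difference) on the 12 arrays (columns, 3 per group). Most rows are brighter on the 6 blastocyst arrays at the right, while UQCRFS1, COX7A2L, ATP5F1C and ATP5PB are bright on all 12 and COX6A2 and COX7A1 lie at background throughout.

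In complex II, 3 of 4 genes rose, with a median difference of 4.03. SDHA, the flavoprotein that oxidizes succinate, had a log2 signal of 7.35, 8.56 and 4.55 in adult and 4.68, 5.38 and 9.53 in prepubertal 8-16-cell embryos, and of 8.61, 11.04 and 9.82 in adult and 11.87, 12.74 and 11.53 in prepubertal blastocysts. The stages overlapped on a single 8-16-cell array, prepubertal replicate 3, which read above adult blastocyst replicate 1. The difference was 4.26 ± 1.05 (SE), adjusted p = 0.00294. SDHB carries the iron-sulfur clusters that lead electrons from SDHA to the membrane. It was at background on all 6 8-16-cell arrays (4.44 to 7.65, median 5.46) and above it on all 6 blastocyst arrays (8.08 to 11.77, median 9.26), a difference of 3.80 ± 1.01 (SE, adjusted p = 0.00686). Against the array backgrounds it was at least 1.95-fold higher in blastocysts, and with all signals raised to their own array's background the difference was 0.96 and did not pass (adjusted p = 0.227). No other gene of the set had this pattern.

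Of the membrane anchors SDHC and SDHD, which bind ubiquinone and heme, SDHC passed and SDHD did not. SDHC rose by 4.32 ± 0.78 (SE, adjusted p = 1.52e-05), from 7.88, 11.62 and 9.42 (adult) and 8.22, 12.06 and 13.17 (prepubertal) to 15.38, 13.31 and 15.59 (adult) and 15.01, 14.48 and 14.51 (prepubertal). Its stages did not overlap. SDHD was above background on all 12 arrays and read 8.65 to 12.42 (median 9.07) in 8-16-cell embryos and 9.05 to 12.74 (median 11.96) in blastocysts. Its difference of 1.94 ± 0.97 did not pass (adjusted p = 0.289), and whether SDHC and SDHD differ in their stage difference was not tested.

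In complex III, 5 of 9 genes rose, with a median difference of 3.54, and 4 of these 5 are small subunits. UQCRB, which lies at the ubiquinone side of the complex, read 5.16 to 10.9 (median 8.3) in 8-16-cell embryos and 10.97 to 14.3 (median 13.5) in blastocysts, a difference of 4.96 ± 0.97 (SE, adjusted p = 6.72e-05). UQCRH is the acidic hinge protein that helps cytochrome c dock. It read 14.42, 14.45 and 14.56 in adult and 15.27, 15.04 and 15.17 in prepubertal blastocysts, close together within each donor group, against 13.23, 10.82 and 10.31 in adult and 13.27, 11.34 and 5.81 in prepubertal 8-16-cell embryos. Neither gene's stages overlapped. UQCRH rose by 4.02 ± 0.77 (adjusted p = 4.28e-05).

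The other complex III genes that rose were UQCR10 (3.73 ± 1.07, SE, adjusted p = 0.0139), UQCR11 (3.60 ± 1.05, adjusted p = 0.0166) and the core protein gene UQCRC2 (3.54 ± 1.05, adjusted p = 0.0194), and in all 3 the stages overlapped. Each of these calls was lost when single arrays were left out: UQCR10 without any of 6 arrays (adjusted p between 0.0501 and 0.0982), UQCR11 without any of 4 (0.0528 to 0.0763) and UQCRC2 without any of 4 (0.0553 to 0.0696). All 3 were among those lost without prepubertal 8-16-cell replicate 1 (0.0597, 0.0749 and 0.0696) and without prepubertal blastocyst replicate 1 (0.0591, 0.0763 and 0.0553).

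UQCRFS1 and CYC1, the 2 measured subunits of complex III that carry redox centres, did not pass. UQCRFS1, the Rieske iron-sulfur protein, was above background on all 12 arrays, with 9.85 to 15.69 (median 11.81) in 8-16-cell embryos and 13.19 to 13.85 (median 13.46) in blastocysts, a difference of 1.31 ± 0.74 (SE, adjusted p = 0.382). CYC1, cytochrome c1, passes electrons to cytochrome c. Its log2 signal was 4.73 to 7.99 (median 6.4) in 8-16-cell embryos and 4.8 to 9.02 (median 7.63) in blastocysts, so the stages overlapped almost fully, and the difference was 0.61 ± 0.96 (adjusted p = 0.839). CYC1 was above background on 0 of 6 8-16-cell arrays and 3 of 6 blastocyst arrays, so most of these values lie at background. UQCRC1, the partner of UQCRC2 in the core, was at background on all 6 8-16-cell arrays and above it on 5 of 6 blastocyst arrays, with a difference of 2.34 ± 0.98 (adjusted p = 0.168). UQCRQ differed by 0.88 ± 1.03 (adjusted p = 0.761).

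In complex IV, 8 of 13 genes rose, with a median difference of 3.46, and the complex held both the largest and the lowest difference of the set. COX5B, a subunit on the matrix side that binds zinc, had 9.57, 8.39 and 5.63 in adult and 6.61, 7.09 and 5.44 in prepubertal 8-16-cell embryos. In blastocysts it had 14.86, 14.11 and 14.93 in adult and 15.45, 14.68 and 15.15 in prepubertal embryos, far above every 8-16-cell array. The difference was 7.74 ± 0.93 (SE, adjusted p = 1.83e-11). COX5A, its neighbour in the complex, read 4.9 to 12.25 (median 6.96) and 11.92 to 14.68 (median 13.81) at the 2 stages. It rose by 6.13 ± 0.98 (adjusted p = 5.94e-07), and adult 8-16-cell replicate 2 was the array that overlapped with blastocysts. COX4I1, the broadly used form of the subunit through which ATP is known to inhibit the complex, read 4.67 to 9.97 (median 5.71) and 11.06 to 14.03 (median 13.4) with no overlap, and rose by 6.12 ± 1.04 (adjusted p = 2.9e-06).

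The small subunits COX6C, COX7A2, COX7C and COX8A also rose, by 4.61 ± 0.89 (SE), 3.46 ± 0.69, 4.12 ± 0.97 and 3.25 ± 1.03 (adjusted p from 5.25e-05 to 0.0326). COX6C did not overlap between the stages, and the other 3 did. COX7C showed its overlap through prepubertal blastocyst replicate 2, which read 7.79 where the other 5 blastocyst arrays read 12.78 to 14.62. The call of COX8A was lost without any of 7 single arrays (adjusted p up to 0.134, without adult 8-16-cell replicate 1). COX6A1, another broadly used subunit, spread from 4.52 to 14.26 in 8-16-cell embryos and from 7.78 to 13.44 in blastocysts, and its difference of 2.46 ± 1.07 did not pass (adjusted p = 0.187).

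**Figure D2:**
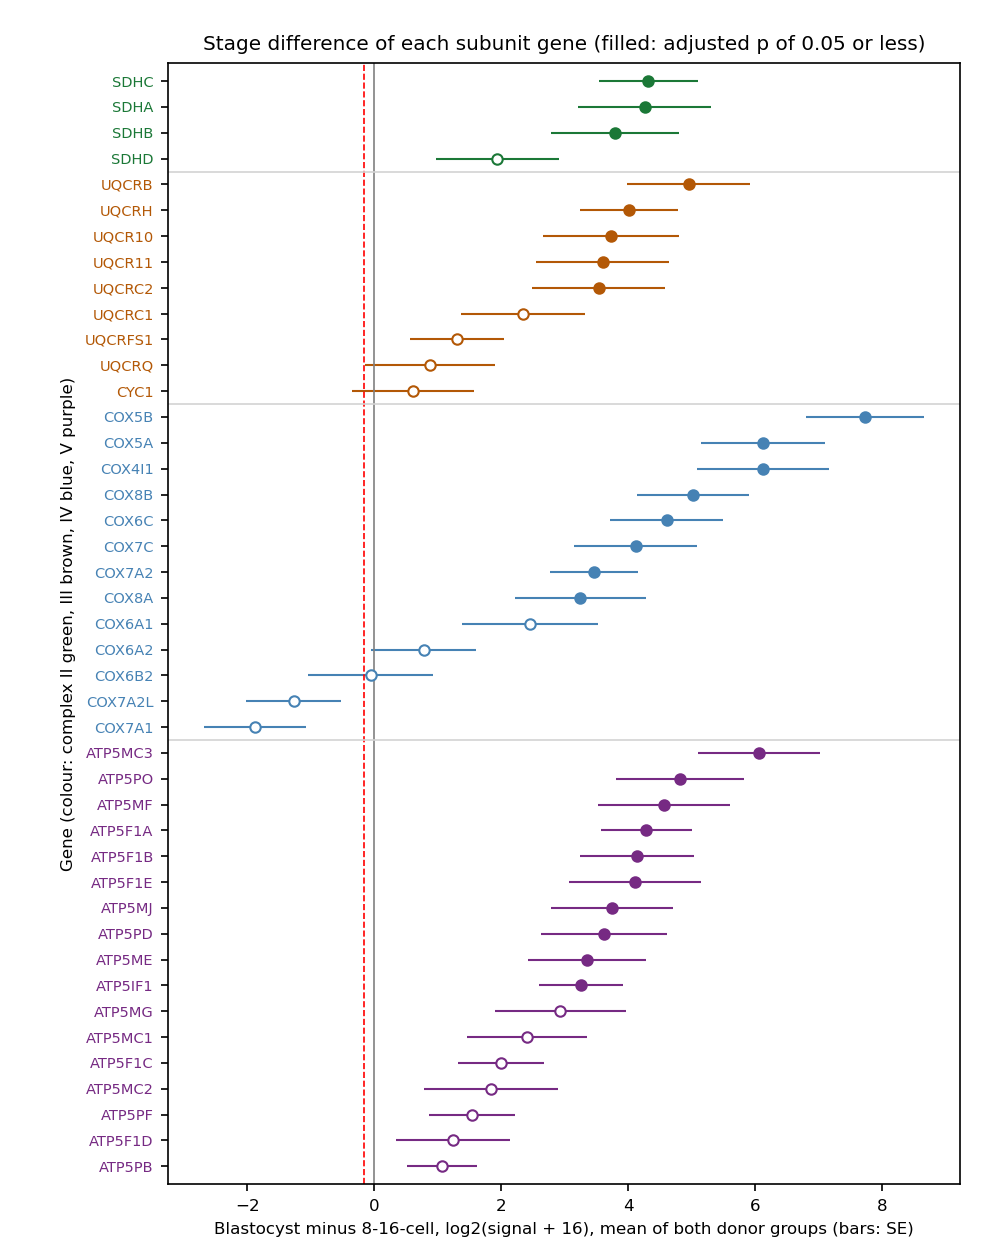
Difference in log2 signal, blastocyst minus 8-16-cell, for each of the 43 genes (points, coloured by complex, filled where the adjusted p was 0.05 or less) with its SE as bars. The dashed line marks the median of all probe sets, -0.17, and the differences run from -1.88 for COX7A1 to 7.74 for COX5B.

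Several complex IV subunits exist as a broadly used form and a form known from heart and skeletal muscle or testis. Of the 8 genes classed as broadly used 7 rose, with a median difference of 4.36. Of the 4 tissue forms 1 did, with a median of 0.36. The 8 include COX4I1, COX5A, COX5B, COX6C and COX7C, for which no tissue form was measured, so these counts do not compare partners. In the measured pairs, COX6A1 and COX6A2 both did not pass, and COX8A and COX8B both rose. Only COX7A2 rose where its tissue form, COX7A1, did not pass. The muscle forms COX6A2 and COX7A1 were at background on all 12 arrays. COX7A1 read 4.72 to 10.03 (median 6.42) in 8-16-cell embryos and 4.4 to 5.98 (median 4.82) in blastocysts, and its difference of -1.88 ± 0.80 (SE) between values at background did not pass (adjusted p = 0.174). Without prepubertal 8-16-cell replicate 1 it was -2.58 and passed (adjusted p = 0.0438). COX6B2, known from testis, was above background on 1 of 6 arrays at each stage and differed by -0.06 ± 0.98 (adjusted p = 0.988). The broadly used partners COX6B1 and COX7B were not measured here.

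COX8B, the muscle form of subunit 8, was the tissue form that rose. It read 7.2, 11.72 and 9.77 in adult and 9.11, 9.76 and 7.03 in prepubertal 8-16-cell embryos, and 14.45, 12.72 and 13.89 in adult and 14.25, 15.33 and 14.07 in prepubertal blastocysts. The stages did not overlap and the difference was 5.02 ± 0.88 (SE, adjusted p = 5.96e-06). A second probe set naming COX8B gave another reading: it was at background on all 12 arrays and its difference was 0.68 ± 0.87 (adjusted p = 0.787). Which of these probe sets reports the COX8B transcript was not tested. COX7A2L, a relative of COX7A2 that helps join complexes III and IV into supercomplexes, was above background on all 12 arrays. It read 13.76, 12.48 and 14.05 in adult and 13.15, 13.82 and 12.68 in prepubertal 8-16-cell embryos, and 12.16, 11.87 and 12.14 in adult and 12.83, 10.7 and 12.63 in prepubertal blastocysts. The stages overlapped on the 2 highest prepubertal blastocyst arrays, and the difference of -1.27 ± 0.75 did not pass (adjusted p = 0.408).

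**Figure D3:**
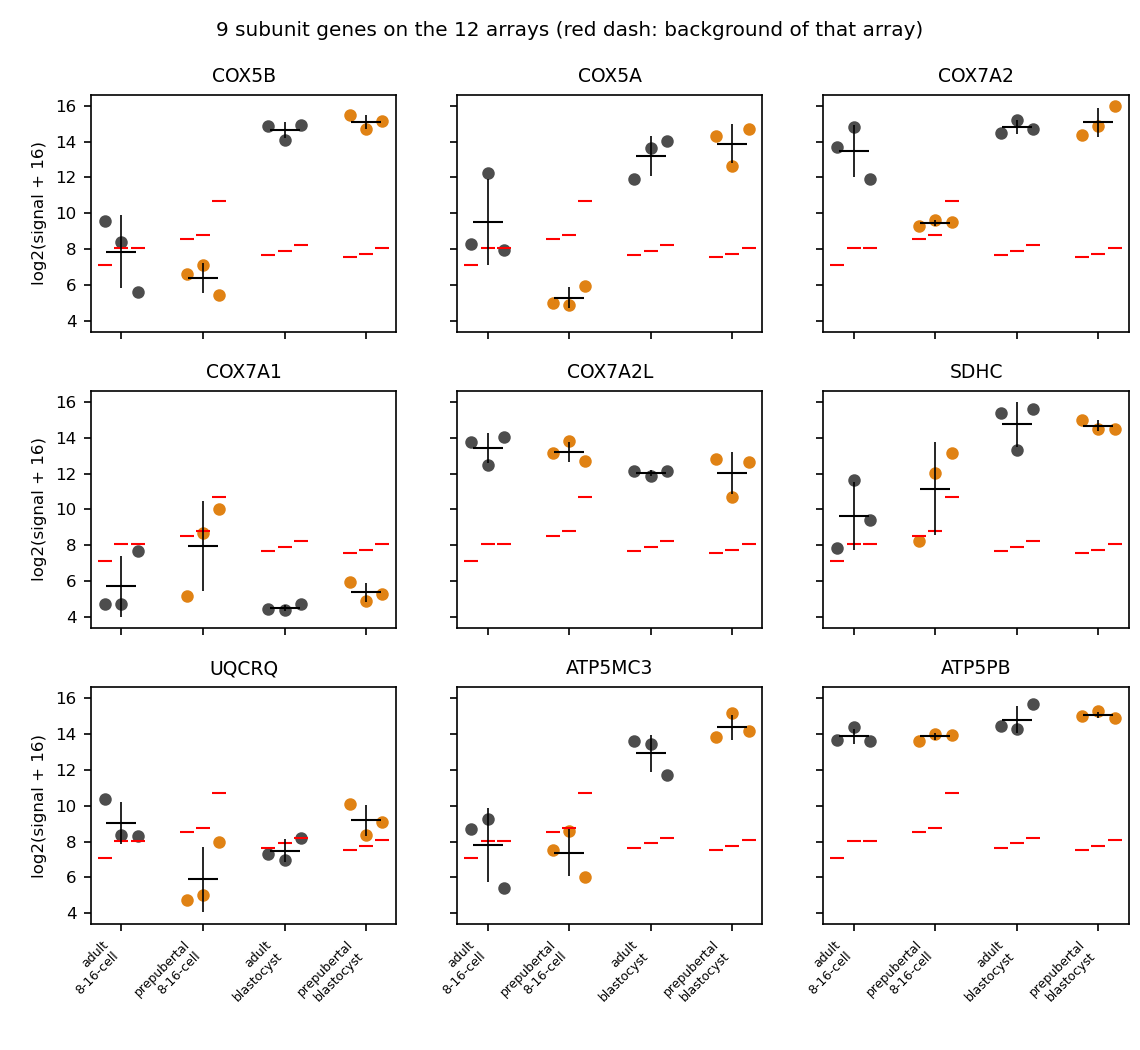
Log2 signal of 9 subunit genes on each array (points: adult grey, prepubertal orange; black: mean ± SD of 3 arrays; red dash: background of that array). COX5B lies at 14.11 or above in blastocysts and at 9.57 or below in 8-16-cell embryos, COX7A1 stays at or under the background and ATP5PB is high in all groups; levels of different genes are not comparable.

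In complex V, 10 of 17 genes rose, and all 17 differences were above 0, with a median of 3.35. The catalytic head is built from the alpha and beta subunits. ATP5F1A (alpha) read 11.34, 12.85 and 12.93 in adult and 11.39, 8.28 and 8.01 in prepubertal 8-16-cell embryos, and 14.64, 15.05 and 15.17 in adult and 14.51, 15.17 and 16.00 in prepubertal blastocysts. ATP5F1B (beta) read 8.04 to 10.03 (median 9.27) and 12.6 to 14.92 (median 12.96). Neither overlapped between the stages, and they rose by 4.29 ± 0.72 (SE, adjusted p = 2.64e-06) and 4.14 ± 0.90 (adjusted p = 0.000497). ATP5F1E, the epsilon subunit of the rotating stalk, rose by 4.11 ± 1.04 (adjusted p = 0.00373). Its stalk partners did not pass: ATP5F1C (gamma) differed by 2.00 ± 0.68 (adjusted p = 0.0547), although its blastocyst arrays (13.83 to 15.26) all lay above its 8-16-cell arrays (11.33 to 13.02), and ATP5F1D (delta) differed by 1.24 ± 0.90 (adjusted p = 0.549) and was above background on 1 of 12 arrays.

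The ring of c subunits that turns as protons pass is made from 3 genes, ATP5MC1, ATP5MC2 and ATP5MC3, which encode the same mature protein with different import sequences. ATP5MC3 read 8.73, 9.26 and 5.44 in adult and 7.51, 8.61 and 6.02 in prepubertal 8-16-cell embryos, and 13.59, 13.47 and 11.73 in adult and 13.83, 15.16 and 14.14 in prepubertal blastocysts. It rose by 6.06 ± 0.96 (SE, adjusted p = 5.49e-07) with no overlap, the largest difference in complex V. ATP5MC1, at background on all 6 8-16-cell arrays and above it on 4 of 6 blastocyst arrays, differed by 2.41 ± 0.95 (adjusted p = 0.13). ATP5MC2 differed by 1.84 ± 1.05 (adjusted p = 0.387). The differences among these 3 genes were not tested.

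In the peripheral stalk, which holds the head still, 2 of 4 genes rose: ATP5PO by 4.82 ± 1.01 (SE, adjusted p = 0.00024) and ATP5PD by 3.62 ± 0.99 (adjusted p = 0.00869, and 0.0576 without prepubertal blastocyst replicate 1). ATP5PB was above background on all 12 arrays, with 13.6 to 14.37 in 8-16-cell embryos and 14.27 to 15.67 in blastocysts. Its difference of 1.07 ± 0.55 was the smallest of complex V and did not pass (adjusted p = 0.312). ATP5PF differed by 1.54 ± 0.67 (adjusted p = 0.195). Of the 4 small membrane subunits 3 rose: ATP5MF by 4.56 ± 1.04 (adjusted p = 0.00099), ATP5MJ by 3.75 ± 0.96 (adjusted p = 0.00451) and ATP5ME by 3.35 ± 0.93 (adjusted p = 0.0106, and 0.0645 without adult 8-16-cell replicate 2). ATP5MG differed by 2.93 ± 1.03 (adjusted p = 0.0653), while its second probe set rose by 3.98 ± 1.04 (adjusted p = 0.00556). ATP5IF1, the inhibitor that keeps ATP synthase from running backwards, read 9.36 to 14.84 (median 12.21) and 14.11 to 16.78 (median 15.3) and rose by 3.26 ± 0.66 (adjusted p = 0.000149).

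Compared as complexes, the medians of the stage difference ran from 3.35 (complex V) to 4.03 (complex II), and no test of a difference among them was made. This order did not hold throughout. In prepubertal embryos complex II had the lowest median (3.11) and complex IV the highest (4.79). With every signal raised to the highest background the medians of complexes II to V were 0.76, 0.94, 2.53 and 1.56, and with the probe set of lowest mean those of complexes III and IV were 0.88 and 0.78. The mean log2 signal over the genes of a complex was higher on every blastocyst array than on every 8-16-cell array, in each of the 4 complexes. For complex II it lay at 7.73 ± 0.86 (SD, n = 3) in adult and 8.45 ± 2.10 in prepubertal 8-16-cell pools, and at 11.54 ± 0.35 and 11.80 ± 0.25 in the blastocyst pools. For complex III the values were 8.14 ± 0.53, 7.59 ± 0.84, 10.35 ± 0.55 and 10.94 ± 0.66 in the same order. Complex IV had 8.90 ± 0.77, 8.00 ± 0.78, 11.46 ± 0.21 and 11.67 ± 0.82, and complex V 9.39 ± 0.76, 8.84 ± 0.20, 12.08 ± 0.52 and 12.61 ± 0.36. The genes within a complex covered a wider range than the 4 medians: in complex IV they spanned -1.88 to 7.74, in complex V 1.07 to 6.06, in complex III 0.61 to 4.96 and in complex II 1.94 to 4.32. With SDHB set to its lower bound, and COX6A2 and COX7A1, at background on all 12 arrays, set to 0, the medians were 3.10, 3.54, 3.46 and 3.35 for complexes II to V. CYC1, UQCRC1, ATP5MC1 and ATP5F1D, also at background on all 6 8-16-cell arrays, kept their full differences. All of these genes lie below the median of their complex, and only SDHB, a middle value of complex II, enters a median. The medians of complexes III to V therefore could not move, and say nothing on the part of the background.

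**Figure D4:**
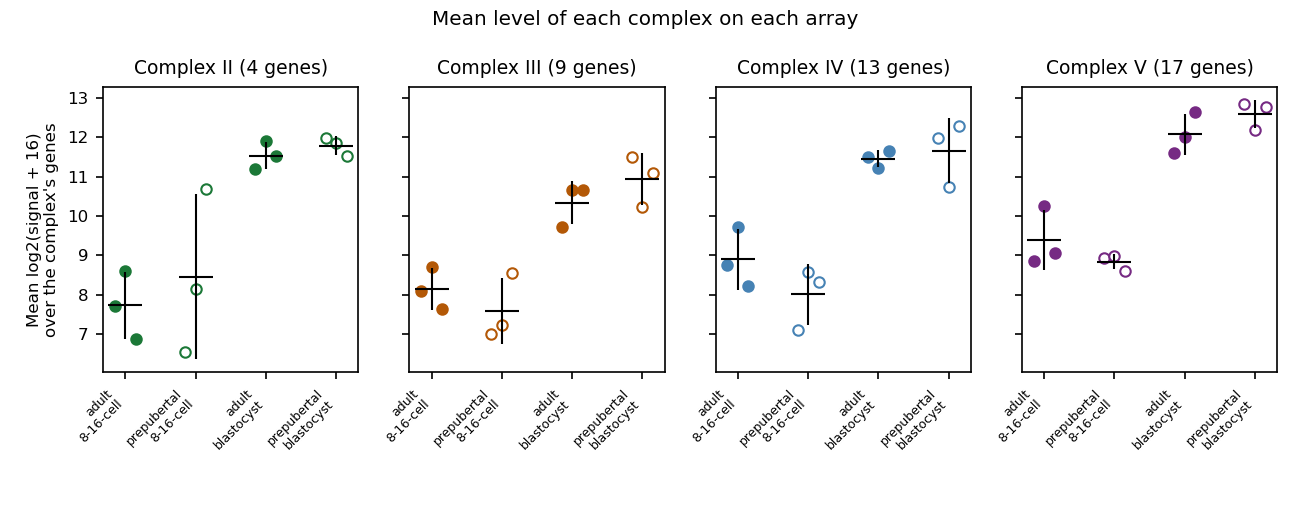
Mean log2 signal over the genes of each complex on each array (points: filled for adult, open for prepubertal; black: mean ± SD of 3 arrays). In all 4 panels the 6 blastocyst arrays lie above the 6 8-16-cell arrays; the panels hold different genes and are not to be compared in height.

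More of these genes could be read in blastocysts. Of the 43 genes, 26.7 ± 6.66 (SD, n = 3) were above background per array at the adult 8-16-cell stage and 11.7 ± 5.13 at the prepubertal one. In blastocysts the numbers were 36.0 ± 1.0 (adult) and 38.7 ± 1.53 (prepubertal). Over all probe sets the numbers above background were 6434.7 ± 858, 3628.3 ± 2120, 6442 ± 495 and 8329.3 ± 187 in the same order. In the adult group the 2 stages thus had nearly the same number of probe sets above background but different numbers of subunit genes. On all 6 blastocyst arrays 32 genes were above background, and 5 were so on all 12 arrays (SDHD, UQCRFS1, COX7A2L, ATP5F1C and ATP5PB). Of the 24016 probe sets, 2507 were above background on all 6 blastocyst arrays and 569 on all 12 arrays. SDHB, COX4I1, ATP5F1E, ATP5MC2 and ATP5MF were above background on at most 1 8-16-cell array and on all 6 blastocyst arrays. The same held for 392 of the 24016 probe sets.

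The spread between replicate pools was smaller in blastocysts for most of the genes. Over the 43 genes the within-group SD had a median of 1.77 among 8-16-cell pools and of 0.92 among blastocyst pools, against 1.5 and 1.33 over all probe sets. It was smaller in blastocysts for 32 of the 43 genes (74.4%, against 58.8% of all probe sets). UQCRH went from 2.95 to 0.10, UQCRFS1 from 1.75 to 0.28 and COX6C from 2.21 to 0.51. The levels differ between the stages as well, and their part in the spread was not tested.

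Within each donor group, fewer genes passed. In adult embryos 9 of 43 genes rose and 0 fell, where 1.26% of all probe sets rose: SDHB, SDHC, COX4I1, COX5B, COX7C, COX8B, ATP5IF1, ATP5MC3 and ATP5PO. In prepubertal embryos 19 rose and 0 fell, where 1.43% of all probe sets rose. COX4I1, COX5B, COX8B, ATP5MC3 and ATP5PO passed in both donor groups, 5 of the 9 and of the 19. The share of all probe sets passing in both is not given here. In adult embryos COX8B (limma, adjusted p = 0.0488) and ATP5PO (0.0482) passed narrowly, and each call was lost under 12 alternatives. The adult call of COX4I1 was lost under 4 and that of ATP5MC3 under 3. COX5B passed under all 21 alternatives in both groups. The 14 that passed in prepubertal embryos alone were SDHA, UQCRB, UQCRC2, UQCRH, COX5A, COX6C, COX7A2, COX8A, ATP5F1A, ATP5F1B, ATP5F1E, ATP5ME, ATP5MF and ATP5MJ. UQCR10, UQCR11 and ATP5PD passed in neither group alone. These counts moved with single arrays. The adult count was 4 without adult 8-16-cell replicate 3 or without adult blastocyst replicate 2 or 3, 5 without adult blastocyst replicate 1 and 14 without prepubertal 8-16-cell replicate 3. The prepubertal count was 11 without prepubertal blastocyst replicate 1 or 3 and 12 without replicate 2. Without prepubertal 8-16-cell replicate 3, the array of highest background, it was 18. ATP5F1E (adjusted p = 0.101), ATP5MJ (0.0531) and ATP5PO (0.0651) then no longer passed, while SDHC (4.53, adjusted p = 0.00478) and ATP5PD (5.27, adjusted p = 0.0213) newly did.

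Many genes were at background on all 3 arrays of prepubertal 8-16-cell embryos, and their folds there are lower bounds. COX5B was at least 53.6-fold higher in prepubertal blastocysts (adjusted p = 7.01e-07), ATP5MC3 at least 32.8-fold, COX5A at least 23.0-fold and COX6C at least 22.0-fold. These 4 also passed with every signal raised to the highest background. Lower down were COX4I1 (at least 11.8-fold), ATP5ME (11.1), ATP5F1E (9.46), ATP5MF (8.04), SDHA (6.51) and COX8A (3.67), all 6 of which failed to pass at that floor (adjusted p from 0.084 to 0.784, with a difference of 2.19 in COX4I1 and 1.33 in SDHA). COX8A did not pass either with signals raised to their own array's background (1.88, adjusted p = 0.145). Each of these calls but that of COX4I1 was also lost without at least 1 single array, prepubertal blastocyst replicate 1 for SDHA, COX8A, ATP5F1E and ATP5ME (adjusted p from 0.0608 to 0.227) and replicate 2 for ATP5MF (0.209). UQCRC2 was at background there by the probe set used, with a difference of 5.07 ± 1.48 (SE, adjusted p = 0.0375), and at 2.07 with signals raised to the background of each array it did not pass (adjusted p = 0.0757). Its second probe set was above background on prepubertal 8-16-cell replicate 1, so no bound is given. In adult embryos SDHB rose by 4.90 ± 1.43 (SE, adjusted p = 0.0402), at least 5.93-fold against the background, but it did not pass with signals raised to their array's background (2.57, adjusted p = 0.138), after quantile normalization (4.45, adjusted p = 0.0853), or without adult 8-16-cell replicate 2 or 3 or adult blastocyst replicate 1 or 2 (adjusted p from 0.124 to 0.231). UQCRH, above background on 2 of 3 prepubertal 8-16-cell arrays, rose by 5.02 ± 1.08 (SE, adjusted p = 0.00121) there and by 2.86 without replicate 3 (adjusted p = 0.0494).

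A gene that passed in one donor group and not in the other was not thereby shown to differ between them. The test of that difference called 0 of the 43 genes and 0% of all probe sets (limma), with 6 of the 43 genes and 1307 probe sets at an unadjusted p under 0.05. The 6 were UQCRQ, COX5A, COX7A2, ATP5F1A, ATP5ME and ATP5PF, all with the larger rise in prepubertal embryos. COX5A rose by 8.58 ± 1.38 (SE) in prepubertal embryos and differed by 3.69 ± 1.38 in adult ones, a difference between them of 4.89 ± 1.96 (adjusted p = 0.873). For COX7A2 the values were 5.61 ± 0.97 and 1.32 ± 0.97, a difference of 4.29 ± 1.38 (adjusted p = 0.78). In all, 40 of the 43 genes had the same sign in both donor groups, and for 30 the value was larger in the prepubertal group. Of the 9155 named genes, 5653 had the same sign and 4116 the larger value in the prepubertal group. The 2 sets of differences share no array and correlated over the 43 genes with r = 0.59 and rho = 0.54, against 0.53 and 0.42 over the 9155 named genes (a description across genes, which are not independent).

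**Figure D5:**
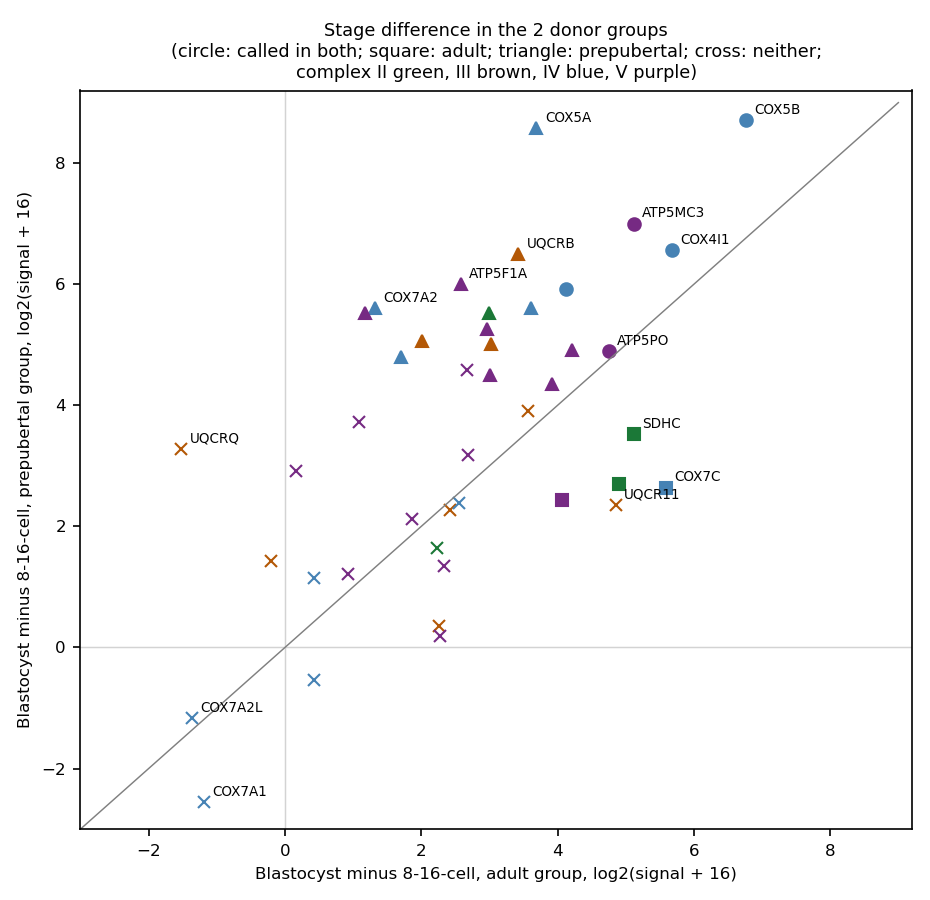
Stage difference of each of the 43 genes in adult embryos (x axis) and in prepubertal embryos (y axis), both in log2 signal, with the line of equality; colour gives the complex and the shape where the gene passed. COX5B, COX4I1 and ATP5MC3 lie far out in both groups, COX5A (3.69 and 8.58) and COX7A2 (1.32 and 5.61) lie above the line, and COX7A1 and COX7A2L lie under 0 in both.

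Prepubertal against adult asks whether embryos from immature donors differ at a given stage. At the 8-16-cell stage limma called 0 of the 43 genes, and 0.0208% of all probe sets; at an unadjusted p under 0.05 there were 7 genes lower and 3 higher, and 2166 probe sets in all. The median difference of the 43 genes was -0.43 where that of all probe sets was 0.59, and after quantile normalization these were -1.03 and 0.05. COX7A2 came closest: it read 13.71, 14.82 and 11.93 in adult and 9.29, 9.61 and 9.52 in prepubertal 8-16-cell embryos, with no overlap. Its difference was -4.02 ± 0.97 (SE, adjusted p = 0.11). It was -4.04 without prepubertal replicate 3 (adjusted p = 0.0278) and -4.17 after quantile normalization (adjusted p = 0.0444), and so passed in both of these. In blastocysts COX7A2 differed between the donor groups by 0.27 ± 0.97 (adjusted p = 1).

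COX5A read 8.29, 12.25 and 7.95 in adult and 5.02, 4.9 and 5.96 in prepubertal 8-16-cell embryos, a difference of -4.20 ± 1.38 (SE, adjusted p = 0.369) whose prepubertal side was at background. ATP5ME read 13.62, 9.1 and 11.36 against 7.09, 8.75 and 6.08, a difference of -4.05 ± 1.32 (adjusted p = 0.369) whose prepubertal side was also at background. With UQCRQ, COX7A2 and COX8A, these were the 5 genes whose 3 prepubertal arrays all lay below the 3 adult ones, an arrangement found for 2.67% of all probe sets. UQCRQ and COX8A too were at background on all 3 prepubertal arrays, and COX7A2 was above it on 2 of 3. In ATP5F1D alone the prepubertal arrays all lay above the adult ones, with all 6 at background, where 10% of all probe sets did so. The prepubertal 8-16-cell arrays had a higher background (8.54, 8.78 and 10.71 against 7.11, 8.05 and 8.06) and brighter hybridization controls, labelled transcripts added at hybridization (18.02, 18.5 and 19.55 against 16.38, 17.28 and 17.55 in log2 signal). Their part in these differences was not tested.

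In blastocysts limma called 0 of the 43 genes and 0% of all probe sets between the donor groups, and 0 of the 43 genes and 884 probe sets had an unadjusted p under 0.05. The median difference was 0.46, against 0.16 over all probe sets. For 8 genes (SDHA, UQCRC2, UQCRH, UQCRQ, COX7A1, ATP5MC1, ATP5MC3 and ATP5MJ) the 3 prepubertal arrays all lay above the 3 adult ones, as did 6.04% of all probe sets. For 0 genes they all lay below, as did 3.78%. The largest difference was that of ATP5MC1, which read 4.67, 7.18 and 8.38 in adult and 9.49, 8.9 and 9.57 in prepubertal blastocysts, 2.57 ± 1.35 (SE, adjusted p = 1).

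For 10 of the 43 genes the array holds a second probe set. That of ATP5F1B rose too, by 3.52 ± 0.92 (SE, adjusted p = 0.00559), as did that of ATP5MG. The second probe sets of ATP5F1A (-1.13 ± 0.84, adjusted p = 0.561), UQCRB (-0.22 ± 0.93, adjusted p = 0.951), UQCRC2 (-1.23 ± 1.03, adjusted p = 0.625) and COX6C (0.14 ± 0.85, adjusted p = 0.966) did not pass where the first one had. Those of ATP5F1A, UQCRB and COX6C were at background on all 12 arrays. With the dimmer probe set of each gene in place of the brighter one, 22 of the 43 genes rose.

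Other mitochondrial genes were read for comparison. Of 37 complex I subunits measured, 15 rose and 0 fell, with a median of 2.44; the smallest p belonged to NDUFS4 (6.92 ± 1.03, SE), NDUFB6 (6.26 ± 1.04) and NDUFC2 (4.95 ± 0.97). Of 15 genes of the tricarboxylic acid cycle and pyruvate dehydrogenase, which feed electrons to the chain, 6 rose and 0 fell (median 1.60), and the smallest p belonged to PDHB (6.78 ± 0.99), MDH2 (4.62 ± 1.03) and IDH3A (3.94 ± 0.95). Of 23 genes of mitochondrial import and inner membrane organisation 4 rose (median 1.24): the chaperones HSPD1 and HSPE1 and the import subunits TOMM7 and TIMM8B. Assembly factors insert copper, heme and subunits into complexes II to V. Of the 21 measured, 0 passed in either direction (limma, median 0.57) and 4 had an unadjusted p under 0.05, the smallest in COX16 (2.26 ± 1.04, adjusted p = 0.227), COA5 (2.26 ± 1.06, adjusted p = 0.241) and SDHAF4 (1.85 ± 0.88, adjusted p = 0.251).

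Of 11 regulators of mitochondrial DNA and biogenesis 0 rose and 1 fell (median -0.03). The one that fell was NRF1, a transcription factor that binds the promoters of many respiratory chain genes. It read 12.69, 9.1 and 10.83 in adult and 4.74, 10.24 and 6.89 in prepubertal 8-16-cell embryos, and 4.39, 5.16 and 4.68 in adult and 6.94, 7.8 and 5.07 in prepubertal blastocysts. Every adult blastocyst array lay below every adult 8-16-cell array, while in prepubertal embryos the stages overlapped. Of the 11 regulators 1 fell in adult and 0 in prepubertal embryos (limma), and the difference between donor groups passed for 0. Over both donor groups NRF1 was above background on 4 of 6 8-16-cell and 1 of 6 blastocyst arrays, and differed by -3.41 ± 1.01 (SE, adjusted p = 0.0192). The coactivator PPARGC1A differed by -2.56 ± 1.02 (adjusted p = 0.132) and PPRC1 by -2.28 ± 1.04 (adjusted p = 0.221). The lists differ in level and in size, and whether they differ from the subunit genes was not tested.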

How the data were processed

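Total RNA of 12 embryo pools was amplified with WT-Ovation Pico, labelled with biotin and hybridized to an Affymetrix bovine array, per the labels' protocols. The deposited values are one signal intensity per probe set on a linear scale, which the authors made with MAS5, per the submitters' processing notes. The sources used here give neither its version nor its settings. The mean signal of each array after trimming 2% at each end was 500.19 to 500.31. No genome build is named and no coordinates are printed. Gene names are those of the platform annotation, brought up to date by gene identifier.

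After taking log2(signal + 16), the 24016 probe sets left of 24128 without the 112 controls were fitted in limma 3.58.1 in R 4.3.3 (lmFit with 4 group means, eBayes with trend = TRUE; 8 residual and 195.66 prior degrees of freedom). P-values were two-sided and adjusted by Benjamini and Hochberg over all 24016, and a gene was called at 0.05 or less. The number of arrays (3 per group) limits the precision. The median SE over all probe sets was 0.92 for the stage difference over both donor groups and 1.30 within one. A fold given as "at least" sets the brighter group's mean against the array backgrounds of a group that lay at background on all its arrays. The alternatives were the pseudocount, quantile normalization, a filter and floors on low signals, array weights, no trend, the replicate block, each array left out and the other probe set.

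The genes named were those called in any comparison, the 2 of smallest p in each complex and all members of isoform families, and for other lists up to 3 of smallest p; further ones were chosen after their values were seen. The members and lists were chosen with earlier results of these data known.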

Additional observations from a re-analysis of the deposited data

Results flagged for a closer look

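UQCRQ, a small subunit of complex III at the ubiquinone side, had donor differences of opposite sign at the 2 stages, of which none passed (adjusted p = 0.518 and 1). At the 8-16-cell stage it read 10.37, 8.38 and 8.31 in adult and 4.73, 5 and 8 in prepubertal embryos. In blastocysts it read 7.33, 6.97 and 8.2 in adult and 10.09, 8.38 and 9.11 in prepubertal embryos. All 3 prepubertal arrays thus lay below the adult ones at the first stage and above them at the second. The prepubertal minus adult difference was -3.11 ± 1.45 (SE) and 1.69 ± 1.45, and the difference between these was 4.80 ± 2.05 (limma, adjusted p = 0.873). It was at background in prepubertal 8-16-cell embryos and in adult blastocysts. The same arrangement held for 0.475% of all probe sets.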

How the results depend on the processing

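Of the 26 genes that rose over both donor groups, 15 passed under all 21 alternatives other than the second probe set, and 11 were lost under 1 or more. The count was 20 to 28 under the alternatives, except 16 with every signal raised to the highest background of the 12 arrays; leaving out single arrays gave 21 to 28, and 0 to 1 lower. Over the arrays left out, the adult count was 4 to 14, the prepubertal one 11 to 21, that between donor groups at the 8-16-cell stage 0 to 1, and the medians of complexes II to V were 3.51 to 4.51, 2.95 to 3.76, 3.08 to 3.80 and 3.06 to 3.71. With the floor at the highest background these medians were 0.76, 0.94, 2.53 and 1.56. With a floor at each array's own background, chosen after seeing the data, they were 2.10, 1.46, 3.27 and 2.54. In prepubertal embryos 3 genes then passed as lower in blastocysts: COX6A2 (-1.56), COX6B2 (-1.43) and COX7A1 (-1.56). COX6A2 and COX7A1 were above background on 0 of 12 arrays and COX6B2 on 1 of 6 at each stage. Their values here are thus mostly the floors, which were 8.54, 8.78 and 10.71 on the prepubertal 8-16-cell arrays and 7.55, 7.73 and 8.08 on the prepubertal blastocyst arrays. At this floor 7 genes differed between donor groups at the 8-16-cell stage. Of these, COX7A2 (-3.62) and ATP5F1A (-2.08) were lower in prepubertal embryos. CYC1, COX6A2, COX6B2, COX7A1 and ATP5F1D (1.49 to 1.61) were higher, where the prepubertal arrays take the value of the floor. The shares of all probe sets passing at this floor are not given here, so the counts of 3 and 7 cannot be read as particular to these genes. Quantile normalization gave 1 gene between donor groups at the 8-16-cell stage, COX7A2. With the probe set of lowest mean the medians of complexes III and IV were 0.88 and 0.78. It turned UQCRB (-0.22), UQCRC2 (-1.23) and ATP5F1A (-1.13) over both donor groups, and UQCRB (-0.57), UQCRC2 (-1.62), COX6C (-0.9), COX8B (-0.14) and ATP5F1A (-3.14) in prepubertal embryos; the cause was not tested. With the replicate block the counts were 27 (both groups), 9 (adult) and 20 (prepubertal). Deviations of same-numbered arrays correlated between -0.026 and 0.044, so the numbers were not taken to pair the pools. With the background at the 90th percentile of the controls, 30.7, 17.7, 39.3 and 40.0 genes were above it in the 4 groups. Where a group lies at background, signal limits what can be seen.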
